A study of Homo sapiens with 15 samples.

Results

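Chromosome 21 was represented by 53478 of the 3439652 overlapping 1 kb windows in which Pt-exo-seq reads had been counted. It was selected on its read share, which was nearly doubled in the resistant line PEO4 relative to the sensitive line PEO1, so every ratio between the lines is a description and carries no test. The members are all windows of the chromosome, of which 38218 held a read in at least 1 library. On GRCh37 (hg19) the first assembled base of chromosome 21 follows a run of N that ends at position 9411193, and a second gap of 3150000 bases (21:11188130-14338129) separates a short arm of 12431 windows from a long arm of 37547 windows. The other 3500 windows lay in that gap. Only 1082 short-arm windows held a read, against 37136 on the long arm. Most short-arm windows lie in the leading run of N, and the assembled part of that arm spans 1776936 bases.

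PEO1 and PEO4 are high-grade serous ovarian cancer cell lines from the same patient, PEO1 taken while the disease was sensitive to platinum and PEO4 after it had become resistant. There were 15 libraries, 3 in each of 5 groups: PEO1 untreated, PEO1 exposed for 5 h to cisplatin at 16 µM, PEO4 untreated, and PEO4 exposed likewise to 16 µM or to 32 µM. In Pt-exo-seq, sheared DNA is digested by exonucleases until a platinum adduct stops them, and the remaining strands are sequenced. The higher dose in PEO4 was set so that it would carry about as much platinum on its DNA as PEO1 at the lower dose. Each line is a single culture lineage, the labels do not say whether replicates were separate cultures, and p-values therefore measure only the spread between these libraries, which may be technical. Total counts ranged from 27.7 to 56.6 M per library.

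Chromosome 21 is the smallest human autosome. Its short arm carries ribosomal RNA genes and repeats shared with the other acrocentric chromosomes. Its long arm carries most of the protein-coding genes, among them the interferon receptor cluster, RUNX1, DYRK1A and APP. The part of the long arm near the centromere is poor in genes and GC, and the end of the long arm is rich in both. Cisplatin cross-links neighbouring purines, mostly adjacent guanines on 1 strand, so a window with many GG or CC pairs offers more sites than one with few. In DNA from untreated cells, and in DNA that escapes digestion, the number of reads also follows the amount of the chromosome in the cells, relative to the rest of the genome. The copy number of a region and the number of adducts per copy cannot be told apart from the counts of 1 treated library.

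Cisplatin target density varied widely along the long arm, and 3 windows are printed to show what the counts were made from. The share of dinucleotide positions that are GG or CC, read on 1 strand so that both strands are covered, had a median of 9.61% over 37126 long-arm windows with reads and no N, and ranged from 0.601% to 44.3%. The first 2 windows have a read count within 20% of the long-arm median (8.84 reads after scaling to the median library) and the highest and lowest density among the 16194 windows in that range. The third is the long-arm window with the highest count. For each, the central 300 bases of the GRCh37 plus strand are given, with runs of 2 or more G or C in capitals.
GG-densest window, 21:46999251-46999550: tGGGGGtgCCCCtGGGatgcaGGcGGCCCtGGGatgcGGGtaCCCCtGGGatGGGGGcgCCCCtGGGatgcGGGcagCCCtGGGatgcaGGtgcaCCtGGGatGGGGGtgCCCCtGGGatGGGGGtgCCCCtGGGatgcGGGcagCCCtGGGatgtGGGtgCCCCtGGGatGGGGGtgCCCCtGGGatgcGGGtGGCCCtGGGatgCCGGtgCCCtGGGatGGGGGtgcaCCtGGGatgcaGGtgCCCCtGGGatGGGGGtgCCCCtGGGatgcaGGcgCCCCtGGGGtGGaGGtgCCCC
GG-poorest window, 21:24035751-24036050: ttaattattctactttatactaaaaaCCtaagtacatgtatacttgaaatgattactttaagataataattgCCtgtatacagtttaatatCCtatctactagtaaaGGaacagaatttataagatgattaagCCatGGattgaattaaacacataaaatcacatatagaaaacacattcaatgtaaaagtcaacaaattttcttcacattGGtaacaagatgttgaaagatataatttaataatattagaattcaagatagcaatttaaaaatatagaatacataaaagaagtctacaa
highest count, 21:45925551-45925850: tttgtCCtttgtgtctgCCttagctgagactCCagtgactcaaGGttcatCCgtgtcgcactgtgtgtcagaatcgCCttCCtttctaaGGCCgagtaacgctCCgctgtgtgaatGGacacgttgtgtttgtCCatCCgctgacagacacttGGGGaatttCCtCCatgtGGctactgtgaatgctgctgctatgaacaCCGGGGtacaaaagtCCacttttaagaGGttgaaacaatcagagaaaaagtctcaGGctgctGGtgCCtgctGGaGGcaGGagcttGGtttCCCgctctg

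The GG-densest window of the 3 (21:46998901-46999900, 39.0% GG or CC, 72.7% GC) is intergenic and lies 5.62 kb from SLC19A1, the reduced folate carrier, in a tandem array of short G-rich units. Its raw counts were 3, 2 and 2 in untreated PEO1, 3, 7 and 3 in PEO1 after 16 µM, 7, 23 and 14 in untreated PEO4, 13, 22 and 11 in PEO4 after 16 µM and 2, 7 and 1 in PEO4 after 32 µM. The untreated PEO4 libraries were all above the untreated PEO1 libraries there, and the PEO4 libraries at 32 µM overlapped both PEO1 groups. The GG-poorest window (21:24035401-24036400, 2.30% GG or CC, 23.7% GC) is intergenic, with NCAM2, 1119.8 kb away, as the nearest protein-coding gene. Its counts were 0, 0 and 10 in untreated PEO1 and 18, 16 and 0 in untreated PEO4, so the lines overlapped there. Its treated counts were 5, 0 and 0 in PEO1, 6, 10 and 26 in PEO4 after 16 µM and 22, 18 and 2 in PEO4 after 32 µM.

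The window with the highest count (21:45925201-45926200, 16.3% GG or CC) is in an intron of TSPEAR on the minus strand. Its raw counts were 127, 134 and 142 in untreated PEO1, 233, 108 and 149 in PEO1 after 16 µM, 197, 238 and 249 in untreated PEO4, 108, 220 and 278 in PEO4 after 16 µM and 124, 84 and 107 in PEO4 after 32 µM. Its mean over all libraries was 153.9 scaled reads, far above the long-arm median, in untreated as in treated libraries. Because 1 kb windows hold so few reads, the values below are sums over 100 kb bins, 1 Mb bins, gene bodies or the arm.

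Over the whole chromosome, reads on chromosome 21 made up 0.688%, 0.685% and 0.691% of all reads outside chromosome Y in the 3 untreated PEO1 libraries. In PEO1 after 16 µM the shares were 0.692%, 0.694% and 0.690%. In untreated PEO4 they were 1.32%, 1.31% and 1.31%, in PEO4 after 16 µM 1.31%, 1.31% and 1.30%, and in PEO4 after 32 µM 1.31%, 1.32% and 1.32%. The lines stood far apart and the groups of each line overlapped. The means were 0.688% ± 0.0032 (SD, n = 3) in untreated PEO1 and 1.31% ± 0.0041 (SD, n = 3) in untreated PEO4. Counting error alone gave 95% Wilson intervals of at most ±0.0043 percentage points for a library; it covers counting only, since reads without molecular identifiers are not independent molecules.

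The log2 ratio of the shares, PEO4 over PEO1, was 0.93 ± 0.0047 (SE, 3 against 3) in untreated cells, a 1.91-fold difference. It was 0.92 ± 0.0035 at 16 µM in both lines and 0.93 ± 0.0061 for PEO4 after 32 µM over PEO1 after 16 µM. Set against the genome, it was PEO1 that stood low. Reads per window with reads on the long arm were 0.551 ± 0.0016 (SD, n = 3) of the genome mean in untreated PEO1 and 1.07 ± 0.0023 in untreated PEO4. Of the 23 chromosomes without Y, chromosome 21 ranked 2 from the lowest in both PEO1 groups, at 0.557 in untreated PEO1 beside 0.552 for chromosome 13. In untreated PEO4 it ranked 14 from the lowest, at 1.06, while chromosome 13 stayed lowest at 0.519. A share is relative to all other reads of the library, so these values give no absolute copy number.

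**Figure D1:**
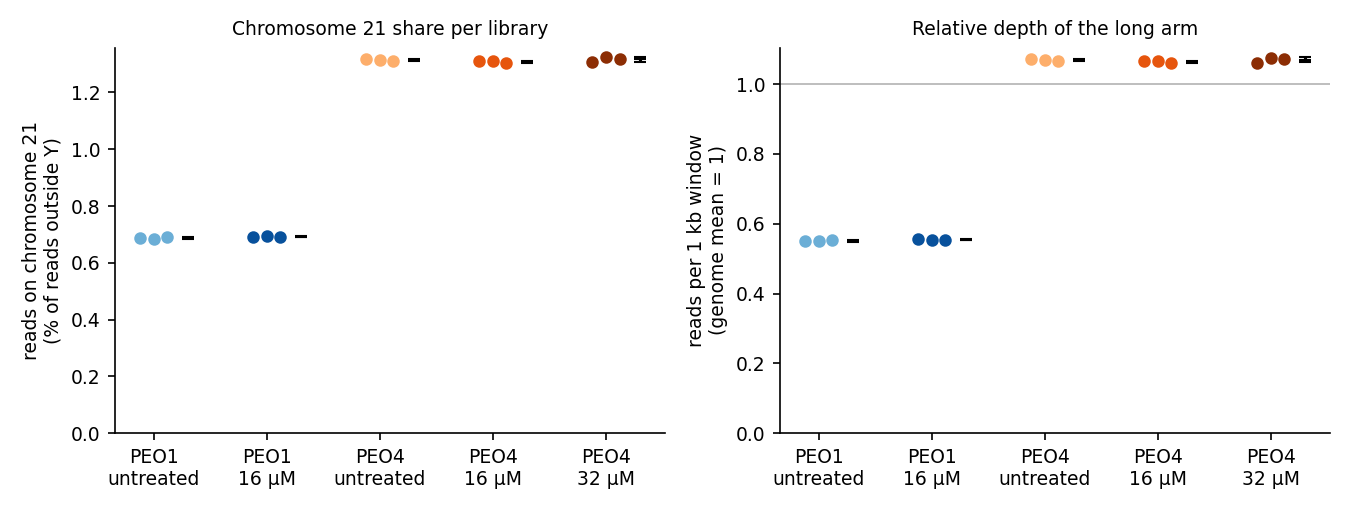
Share of reads on chromosome 21 (left, % of reads outside Y) and reads per 1 kb window on its long arm with the genome mean as 1 (right, grey line), per library. Points are libraries, black marks and bars the mean and SD of 3; PEO1 libraries sit near 0.69% and PEO4 libraries near 1.31%, treated beside untreated.

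The lower level in PEO1 left more of the chromosome unread. Between 16.5% and 39.6% of the complete long-arm windows had no read in a PEO1 library, against 9.16% to 24.8% of such windows over the genome. In PEO4 libraries 4.13% to 12.6% of the long-arm windows were empty, against 8.04% to 18.4% over the genome. The median 100 kb bin of the long arm held 654 reads in untreated PEO1 and 1542 in untreated PEO4, and the median spread between replicates was 9.41% and 5.89% (coefficient of variation, n = 3). Counting alone would give 3.91% and 2.55% at those counts, so most of the spread between replicates was not counting error.

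The higher level in PEO4 ran along the entire long arm. All 336 tested long-arm 100 kb bins had a log2 ratio above 0 in untreated cells (median 0.93, SD 0.17, range 0.58 to 1.48). In all 336 the 3 untreated PEO4 libraries lay above the 3 untreated PEO1 libraries, which was so in 20% of the 28190 bins tested over the genome. The same held in all 35 long-arm 1 Mb bins, against 22.9% of 2866 bins of the genome. Since the chromosome was chosen for this contrast, nothing is read from these counts. No long-arm bin of 100 kb returned to the level of PEO1 in untreated cells.

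The short arm did not share the difference in full. Its log2 ratio was 0.23 ± 0.065 (SE, 3 against 3), beside 0.96 ± 0.0030 on the long arm. Its relative depth was 0.797, 0.740 and 0.819 in untreated PEO1 and 0.940, 0.963 and 0.864 in untreated PEO4, so the groups did not overlap but stood close. In the 14 tested short-arm 100 kb bins the untreated ratio had a median of 0.17 and ranged from -0.40 to 0.49, and the libraries of the lines did not overlap in 5 of them. How reads with several matches were placed was not tested.

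Within the long arm the untreated ratio was not flat. The 3 highest 1 Mb bins were the gene-dense bins near the end of the arm. The bin 21:46000001-47000000 (52.4% GC, 22 protein-coding genes, among them SUMO3, ITGB2, ADARB1, COL18A1 and SLC19A1) held 5728, 6391 and 6787 scaled reads in untreated PEO1 and 16011, 14207 and 15484 in untreated PEO4, a log2 ratio of 1.27. The neighbours 21:47000001-48000000 (COL6A1, COL6A2, FTCD, MCM3AP, PCNT) and 21:45000001-46000000 (PDXK, CSTB, DNMT3L, AIRE, PFKL) had ratios of 1.22 and 1.21. In untreated PEO1 these 3 bins held means of 6258 to 6687 scaled reads, close to the 6148 to 6668 of the 3 bins with the lowest ratio. Untreated PEO4 held means of 14584 to 15492 in the first set and 10724 to 11722 in the second. The sets differ in GC content, 49.8% to 52.4% against 34.5% to 37.2%. In PEO1 after 16 µM the means were 7135 to 7823 and 5671 to 6488, so PEO1 was not level over these bins in both its groups.

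The 3 lowest were in the gene-poor stretch nearer the centromere. The bin 21:24000001-25000000 (34.5% GC) overlaps no protein-coding gene. Its scaled reads were 6614, 6074 and 5758 in untreated PEO1 and 10718, 11009 and 10445 in untreated PEO4, a log2 ratio of 0.80. The bins 21:19000001-20000000 (C21orf91, CHODL and TMPRSS15) and 21:26000001-27000000 (MRPL39) both had a ratio of 0.81. Even the lowest bin thus held clearly more reads in every untreated PEO4 library than in any untreated PEO1 library.

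In treated cells the order of these bins, as counted, was the other way round, but only with replicate 1 of PEO1 after 16 µM included. At 16 µM in both lines the end bin at 21:46000001-47000000 had a ratio of 0.78 and the gene-poor bin at 21:24000001-25000000 a ratio of 0.99. For PEO4 after 32 µM over PEO1 after 16 µM the values were 0.84 and 1.11. Without that PEO1 library the end bin had 0.97 and the gene-poor bin 0.88 at 16 µM in both lines, and 1.03 and 1.00 for 32 over 16 µM, so the end bin was again the higher. In untreated cells the end bin stayed above the gene-poor bin with each library left out, by 0.35 to 0.57. The 1 Mb ratios of the long arm spanned 0.80 to 1.27 in untreated cells, 0.71 to 1.03 at 16 µM in both lines and 0.73 to 1.13 for 32 over 16 µM. Their medians were 0.90, 0.95 and 0.93.

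**Figure D2:**
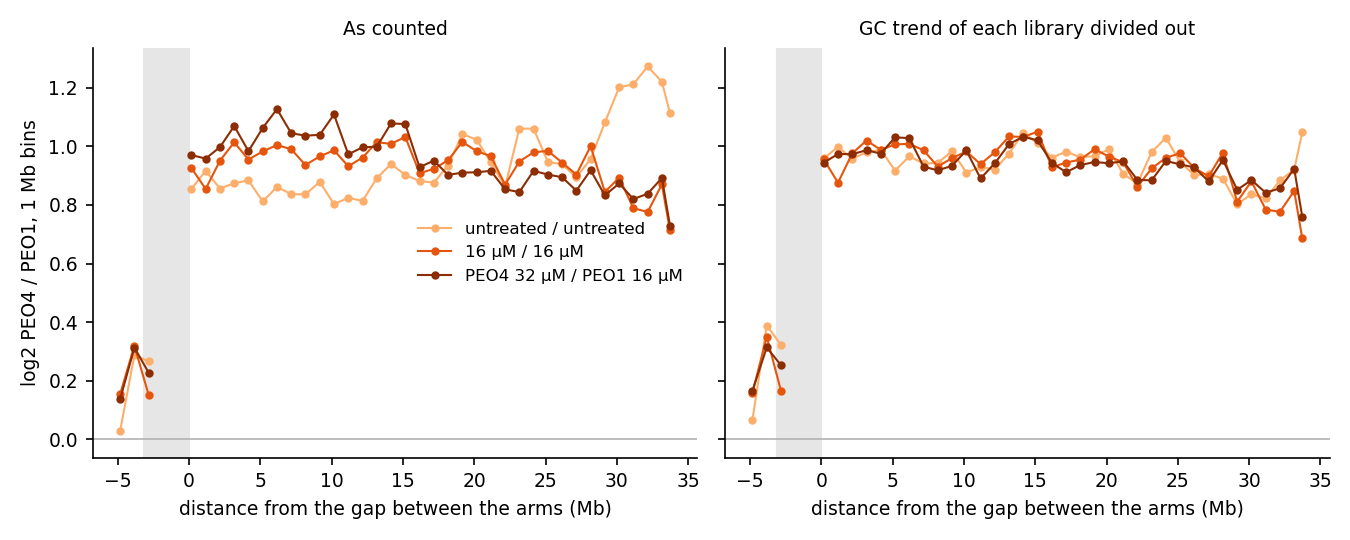
Log2 ratio PEO4 over PEO1 in 1 Mb bins against the distance from the gap between the arms (Mb, gap shaded), as counted (left) and after dividing out the GC trend of each library (right). Colours are the 3 pairs of groups. Long-arm bins run from 0.71 to 1.27 on the left and from 0.69 to 1.05 on the right, and the 3 short-arm bins lie below 0.40. The rise of the untreated ratio to 1.27 at the end of the arm is gone on the right.

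The gradient moved with base composition. Over the 336 long-arm 100 kb bins the ratio rose with GC content in untreated cells (Pearson r = 0.77, Spearman rho = 0.67) and was lower at high GC in treated cells (r = -0.34 at 16 µM in both lines, and r = -0.53 for 32 over 16 µM). The treated values rested on single libraries. Without replicate 1 of PEO1 after 16 µM they were 0.35 and 0.10, and without replicate 1 of PEO4 after 16 µM the first was 0.24. The second was -0.16 without replicate 2 of PEO4 after 32 µM. The untreated r was 0.55 without replicate 1 of untreated PEO1 and at least 0.70 without any other library. These are descriptions across neighbouring bins that share the same 6 libraries. When the GC trend of each library, taken from the other chromosomes, was divided out, the untreated ratio had a median of 0.95, an SD of 0.11 and a range of 0.62 to 1.20, and r was -0.22. In the treated pairs r was then -0.41 at 16 µM in both lines, with an SD of 0.12 as before, and -0.28 for 32 over 16 µM. In 1 Mb bins the untreated r went from 0.92 to -0.53 with this step, so a relation with GC remained in all 3 pairs. With the trend divided out, 329 of the 336 bins in untreated cells lay within 0.25 of the median, and without that step 290 did. The end bin at 21:46000001-47000000 then had 0.88 and the gene-poor bin at 21:24000001-25000000 had 0.91 in untreated cells. In the treated pairs, with all libraries and the trend divided out, the end bin stayed the lower. It had 0.78 beside 0.98 at 16 µM in both lines, and 0.86 beside 0.99 for 32 over 16 µM. Leaving out single libraries was done only on the ratios as counted.

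**Figure D3:**
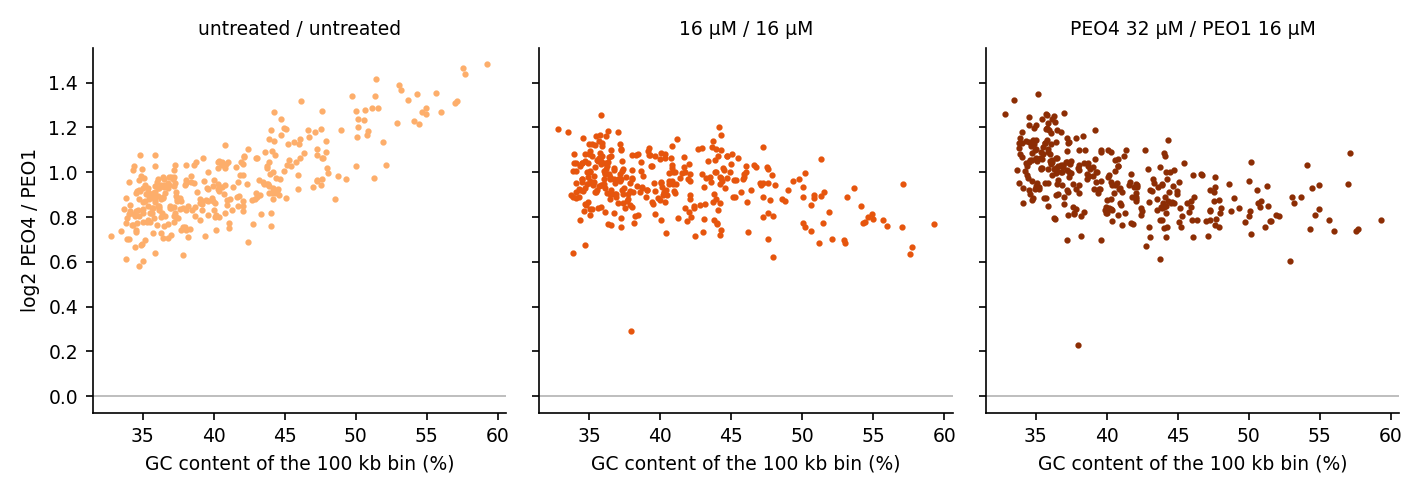
Log2 ratio PEO4 over PEO1 in 336 long-arm 100 kb bins against GC content of the bin (%), for 3 pairs of groups. The cloud rises with GC in untreated cells and falls with it in both treated pairs, while every point stays above 0. Both falls are gone without replicate 1 of PEO1 after 16 µM. At 16 µM in both lines the fall is also gone without replicate 1 of PEO4 after 16 µM.

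No shift of the chromosome 21 share with cisplatin was detectable beyond the spread of the libraries. The within-line change of the log2 share was 0.0085 in PEO1 after 16 µM, -0.0063 in PEO4 after 16 µM and 0.0026 in PEO4 after 32 µM, and 32 µM differed from 16 µM in PEO4 by 0.0090. The exact two-sided permutation p-values were 0.2, 0.3, 0.7 and 0.3 (3 libraries against 3, where the smallest possible is 0.1), and 0.45, 0.45, 0.7 and 0.45 after adjustment over 6 comparisons. The response difference, PEO4 less PEO1, was -0.0058 at 32 against 16 µM (exact p = 0.5, adjusted 0.6) and -0.015 at 16 µM in both lines (exact p = 0.1, adjusted 0.45).

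The response along the chromosome was also below detection in bins. With the quasi-likelihood test of edgeR over all 15 libraries, 0 of 350 chromosome 21 bins of 100 kb passed an adjusted p of 0.05 in any of the 6 comparisons, as did 0% of the genome's bins. DESeq2 and limma, run as alternatives, called 0 on the chromosome as well. At an unadjusted p under 0.05, 24 of 350 bins passed in PEO1 after 16 µM (15 higher, 9 lower), which is 6.86% beside 3.1% over the genome. In PEO4 after 16 µM 4 bins passed, 1.14% beside 2.14%. In PEO4 after 32 µM 19 bins passed, 5.43% beside 9.3%, and between 32 and 16 µM 5 passed, 1.43% beside 2.94%. For the response differences 37 bins passed at 32 against 16 µM, 10.6% beside 7.73%, and 26 passed at 16 µM in both lines, 7.43% beside 4.25%. These shares lay on either side of the background. The comparisons of PEO4 with its untreated cells share the same 3 untreated libraries, and both response differences share the PEO1 libraries.

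In 1 Mb bins, which hold more reads, 0 of 38 passed the adjusted limit in any comparison with edgeR, DESeq2 or limma, as did 0% of the genome with edgeR. At an unadjusted p under 0.05, 1 of 38 passed in PEO1 after 16 µM (0.837% over the genome), 0 in PEO4 after 16 µM (0.733%), 2 in PEO4 after 32 µM (10%) and 1 between 32 and 16 µM (1.15%). For the response differences 1 passed at 32 against 16 µM (3.52%) and 2 at 16 µM in both lines (1.26%).

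In PEO1 after 16 µM the smallest p among bins with a higher value was in 21:46900001-47000000 (57.5% GC, COL18A1 and SLC19A1), with 483, 548 and 545 scaled reads untreated and 1022, 594 and 726 treated, a log2 change of 0.59 ± 0.18 (SE) with an edgeR adjusted p of 0.999. With a GC offset per library the change was 0.19. The treated libraries were all above the untreated ones, and replicate 1 was far above the other treated libraries. The 100 kb bins named here and below were chosen for the smallest p, so groups that stand apart in them add no support. The smallest p among bins with a lower value in PEO1 was in 21:30400001-30500000 (40.1% GC, USP16, CCT8 and MAP3K7CL), with 779, 749 and 768 untreated and 557, 712 and 616 treated, a log2 change of -0.27 ± 0.096 with an edgeR adjusted p of 0.999. USP16 is a deubiquitinase of histone H2A and CCT8 a subunit of a chaperonin.

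In PEO4 after 16 µM the smallest p among bins with a higher value was in 21:31300001-31400000 (36.3% GC, GRIK1, a glutamate receptor subunit), with 1170, 1221 and 1022 scaled reads untreated and 1474, 1335 and 1321 treated. The log2 change was 0.26 ± 0.091, with an edgeR adjusted p of 0.989. The smallest p among bins with a lower value was in 21:46700001-46800000 (55.7% GC, POFUT2, a protein O-fucosyltransferase), with 1669, 1535 and 1628 scaled reads untreated and 982, 1387 and 1440 treated. The log2 change was -0.35 ± 0.17, with an edgeR adjusted p of 0.989, and -0.10 with a GC offset per library, and replicate 1 was far below the other treated libraries.

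In PEO4 after 32 µM the corresponding bin with a higher value was 21:26500001-26600000 (36.8% GC, no protein-coding gene, 358 kb from MRPL39), with 1126, 1102 and 1215 scaled reads untreated and 1337, 1447 and 1501 treated. The log2 change was 0.30 ± 0.094 with an edgeR adjusted p of 0.518, and 0.18 with a GC offset. The one with a lower value was 21:47200001-47300000 (49.8% GC, PCBP3, an RNA-binding protein), with 1676, 1513 and 1559 untreated and 1269, 1268 and 1082 treated, a log2 change of -0.40 ± 0.11 with an edgeR adjusted p of 0.518, and -0.17 with a GC offset. In both bins, chosen for the smallest p, the 3 treated libraries lay on 1 side of the 3 untreated ones. The PCBP3 bin also had the smallest p for a lower response of PEO4 after 32 µM than of PEO1 after 16 µM, where PEO1 held 576, 646 and 652 untreated and 728, 667 and 714 treated. That response difference was -0.59 ± 0.16 (edgeR adjusted p = 0.602), and -0.26 with a GC offset per library.

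Between the doses in PEO4 the bin with a higher value at 32 µM was 21:15600001-15700000 (RBM11, an RNA-binding protein), 1105, 1075 and 1215 scaled reads at 16 µM against 1249, 1433 and 1387 after 32 µM. The log2 change was 0.26 ± 0.11 with an edgeR adjusted p of 0.999. The bin with a lower value was 21:38700001-38800000, which holds the start of DYRK1A, a kinase with dosage effects in Down syndrome, 1532, 1460 and 1505 against 1219, 1356 and 1310. The log2 change was -0.21 ± 0.088 with an edgeR adjusted p of 0.999. The groups did not overlap in either bin, both chosen for the smallest p, and neither change passed the adjusted limit.

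For the response differences, the smallest p with a higher response of PEO4 at 32 against 16 µM was in 21:21500001-21600000 (34.9% GC, 770.7 kb from NCAM2), where PEO4 held 958, 1078 and 927 untreated and 1251, 1219 and 1191 treated, and PEO1 576, 584 and 696 untreated and 528, 564 and 504 treated. The difference was 0.50 ± 0.15 on the log2 scale (edgeR adjusted p = 0.602), and 0.32 with a GC offset. At 16 µM in both lines the bins were 21:26600001-26700000 (35.0% GC, 258 kb from MRPL39), with 0.47 ± 0.19, and again 21:46900001-47000000 with COL18A1 and SLC19A1, with -0.85 ± 0.25 (edgeR adjusted p = 0.937 in both). In the COL18A1 and SLC19A1 bin PEO4 held 1568, 1296 and 1482 scaled reads untreated and 1006, 1276 and 1355 treated. A GC offset per library reduced that difference to -0.15.

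GG density was used to ask whether reads moved towards the preferred sites of cisplatin. The 20% of long-arm windows with the most GG or CC (7425 windows, at least 13.3%, mean GC 52.9%) was set against the 20% with the least (7425 windows, at most 6.91%, mean GC 31.6%). The log2 ratio of reads per window was -0.28, 0.31 and 0.20 in untreated PEO1 and 0.87, 0.010 and 0.0087 in PEO1 after 16 µM. It was 0.61, 0.30 and 0.62 in untreated PEO4, -0.31, 0.53 and 0.39 after 16 µM and 0.59, -0.42 and -0.089 after 32 µM. The libraries of each treated group spread more than that group differed from the untreated cells of its line. Replicate 1 stood apart in each treated group, above the others in PEO1 after 16 µM and PEO4 after 32 µM and below them in PEO4 after 16 µM. Without replicate 1 of PEO1 after 16 µM the difference in PEO1, given next, was -0.067. Without replicate 1 of PEO4 after 16 µM the difference in PEO4 after 16 µM was -0.049.

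The difference of the GG contrast from untreated cells was 0.22 in PEO1 after 16 µM, -0.30 in PEO4 after 16 µM and -0.48 in PEO4 after 32 µM, and it was -0.18 between 32 and 16 µM (exact permutation p = 0.7, 0.5, 0.2 and 0.8; adjusted 0.8, 0.75, 0.75 and 0.8). The response difference, PEO4 less PEO1, was -0.70 at 32 against 16 µM (exact p = 0.3, adjusted 0.75) and -0.53 at 16 µM in both lines (exact p = 0.4, adjusted 0.75). The last value was -0.24 without replicate 1 of PEO1 after 16 µM and -0.27 without replicate 1 of PEO4 after 16 µM. Ranking windows by GG density within 20 bands of GC content narrowed its range over libraries, to 0.0037 to 0.062 in untreated PEO1, 0.033 to 0.15 in PEO1 after 16 µM, 0.10 to 0.11 in untreated PEO4, 0.060 to 0.11 in PEO4 after 16 µM and 0.037 to 0.078 in PEO4 after 32 µM. With GC held in this way, the 3 PEO4 libraries at 32 µM lay below the 3 untreated ones, a change of -0.046 (exact permutation p = 0.1, the smallest the design allows). This was 1 of 6 comparisons of this alternative, and its p was not adjusted. The change was 0.043 in PEO1 after 16 µM and -0.014 in PEO4 after 16 µM (exact permutation p = 0.5 and 0.7), where the groups overlapped. In the response difference at 32 against 16 µM the groups also stood apart, with PEO4 lower in every library. Its exact permutation p was again the smallest the design allows, and not adjusted. The groups overlapped between the doses in PEO4 and in the response difference at 16 µM in both lines.

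**Figure D4:**
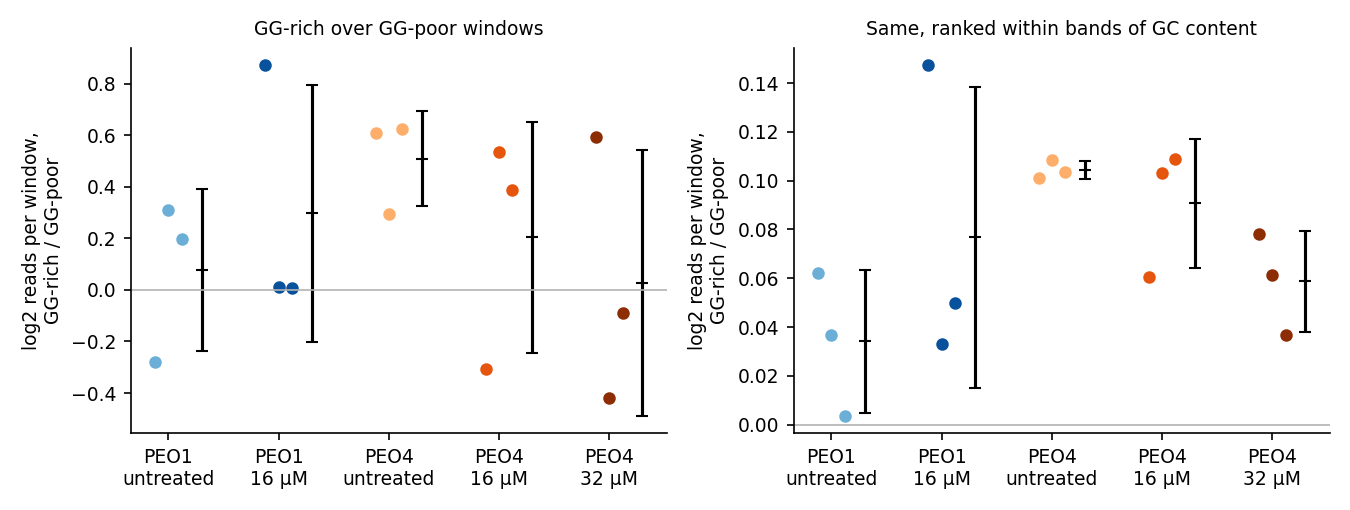
Log2 ratio of reads per window, GG-richest over GG-poorest 20% of long-arm windows, per library, ranked over all windows (left) and within bands of GC content (right). Points are libraries and black marks the mean and SD of 3; the left panel spans -0.42 to 0.87 with overlapping groups, the right panel only 0.0037 to 0.15.

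The slope of the long-arm profile over GC content, computed after the data had been examined, had the same signs. Per 10 percentage points of GC, the slope of the log2 value relative to untreated cells was 0.42, -0.025 and -0.019 in the PEO1 libraries at 16 µM, -0.43, -0.020 and -0.060 in PEO4 after 16 µM and 0.051, -0.42 and -0.31 in PEO4 after 32 µM. The same libraries had slopes of 0.40, -0.047 and -0.044, of -0.46, 0.015 and -0.051, and of 0.030, -0.44 and -0.34 on the other chromosomes. Each library's slope on chromosome 21 was thus close to its slope elsewhere. The mean difference was 0.13 in PEO1 after 16 µM, -0.17 in PEO4 after 16 µM and -0.23 in PEO4 after 32 µM (exact permutation p = 0.6, 0.3 and 0.3; adjusted 0.72, 0.45 and 0.45). Without replicate 1 of PEO1 after 16 µM the difference in PEO1 was -0.022, and without replicate 1 of PEO4 after 16 µM that in PEO4 after 16 µM was -0.040. In PEO4 after 32 µM the mean difference was -0.36 without replicate 1 of that group. It was -0.056 between the doses in PEO4 (exact p = 1, adjusted 1), and for PEO4 minus PEO1 it was -0.35 at 32 against 16 µM and -0.29 at 16 µM in both lines (exact permutation p = 0.3 and 0.2, adjusted 0.45 in both).

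Gene bodies repeated the picture of the bins. Of 212 protein-coding genes of chromosome 21 with a window midpoint, 186 had a mean of at least 10 reads and were tested. Their untreated log2 ratio had a median of 1.03, beside 0.090 over 19178 tested genes of the genome, and 185 of the 186 were above 0. The untreated libraries of the lines did not overlap in 167, with PEO4 higher, which was so in 25.1% of tested genes of the genome. In the cisplatin comparisons 0 of 186 genes passed the adjusted limit with edgeR, DESeq2 or limma, as did 0% of the genome's genes with edgeR. At an unadjusted p under 0.05, 17 genes passed in PEO1 after 16 µM (9.14% beside 5.81%), 5 in PEO4 after 16 µM (2.69% beside 2.63%), 3 in PEO4 after 32 µM (1.61% beside 6.43%) and 7 between the doses (3.76% beside 2.61%). For the response differences 19 passed at 32 against 16 µM (10.2% beside 7.89%) and 19 at 16 µM in both lines (10.2% beside 6.94%).

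The interferon and interleukin-10 receptor genes lie side by side on the long arm and were measured in full. IFNAR1 (21:34696692-34732170), a chain of the type I interferon receptor, held 252, 229 and 321 scaled reads in untreated PEO1 and 512, 445 and 494 in untreated PEO4, a log2 ratio of 0.85. IFNAR2, the other chain, had 0.78, IFNGR2 of the interferon gamma receptor had 1.11 and IL10RB had 1.16. The untreated lines did not overlap in any of the 4, with PEO4 higher. The same held in 167 of the 186 tested genes of the chromosome and 25.1% of those of the genome. The median ratio of the 4 was 0.98 untreated, 0.94 at 16 µM in both lines and 0.92 for 32 over 16 µM. None of the 4 passed an unadjusted p of 0.05 in any cisplatin comparison with edgeR. Their median change was -0.18 in PEO1 after 16 µM, -0.085 in PEO4 after 16 µM and -0.11 in PEO4 after 32 µM, beside -0.0017, 0.0014 and -0.0060 over all genes tested.

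All 8 genes of replication, repair and chromosome maintenance were higher in every untreated PEO4 library (median log2 ratio 1.06), as were 167 of the 186 tested genes of the chromosome (median 1.03). DONSON, a replication fork protein, held 259, 232 and 197 scaled reads in untreated PEO1 and 386, 436 and 382 in untreated PEO4. CHAF1B, a subunit of the chromatin assembly factor that loads histones behind the fork, held 231, 199 and 268 against 554, 492 and 593. Their ratios were 0.81 and 1.23, and HMGN1, a nucleosome-binding protein, had 0.77. In PEO1 after 16 µM the log2 change was -0.41 for DONSON and -0.37 for CHAF1B, and none of the 8 passed an unadjusted p of 0.05 with edgeR in any comparison.

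The 5 genes of folate, purine, sulfur and redox metabolism had the highest median ratio of these lists among untreated cells, 1.43, and 0.66 at 16 µM in both lines. GART (21:34876238-34915797), a trifunctional enzyme of purine synthesis, held 251, 288 and 244 scaled reads in untreated PEO1 and 468, 544 and 603 in untreated PEO4. Its ratio was 1.04 untreated and 1.11 at 16 µM. SLC19A1 (21:46913486-46993279), 56.5% GC, held 378, 429 and 446 in untreated PEO1, 824, 482 and 571 in PEO1 after 16 µM, 1250, 1058 and 1162 in untreated PEO4, 785, 1011 and 1160 after 16 µM and 1242, 967 and 899 after 32 µM. Its untreated ratio was 1.47. Its change was 0.52 ± 0.15 (SE) in PEO1 after 16 µM and -0.18 ± 0.14 in PEO4 after 16 µM (edgeR adjusted p = 0.698 and 0.990). In the 100 kb bin that holds SLC19A1, a GC offset per library lowered the PEO1 change from 0.59 to 0.19. Changes with a GC offset are not given for single genes. CBS, which makes cystathionine from homocysteine, and FTCD, an enzyme of folate-linked histidine breakdown, had untreated ratios of 1.43 and 1.46. In the response difference at 16 µM in both lines, 3 of the 5 genes passed an unadjusted p of 0.05, all GC-rich, with a median of -0.71 over the list beside 0.0043 over all genes, where 6.94% passed. That was the highest count among the 6 comparisons. In PEO1 after 16 µM 1 of the 5 passed, in PEO4 after 16 µM 2, in PEO4 after 32 µM 0, between the doses 1 and in the other response difference 1, beside 5.81%, 2.63%, 6.43%, 2.61% and 7.89% of all genes.

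Among 10 transcription factors and chromatin genes the median ratio was 0.89 in untreated cells, and all 10 were higher in every untreated PEO4 library. So were 167 of the 186 tested genes of the chromosome and 25.1% of those of the genome. RUNX1 (21:36160098-37376965), a regulator of blood formation and the longest gene in the set, held 8777, 8977 and 8665 scaled reads in untreated PEO1, 8794, 9048 and 8635 in PEO1 after 16 µM, 16625, 16289 and 15914 in untreated PEO4, 15637, 16552 and 16161 after 16 µM and 15920, 15214 and 16132 after 32 µM. Its ratio was 0.89, 0.87 and 0.84 in the 3 pairs. ERG, an ETS-family factor, had 0.89, 0.91 and 0.89. ETS2, another member of that family with far fewer reads, had 0.72, 0.57 and 1.03. OLIG2, a small GC-rich gene, had the highest untreated ratio of the set, 1.82, on a mean of only 12.2 scaled reads in untreated PEO1; it was named after its values were seen. At an unadjusted p under 0.05 with edgeR, 1 of the 10 passed between the doses in PEO4, beside 2.61% of all genes tested. None passed in the other 5 comparisons.

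The 6 kinase and signalling genes had a median ratio of 1.01. DYRK1A held 1205, 1155 and 991 scaled reads in untreated PEO1 and 2296, 2239 and 2288 in untreated PEO4, a ratio of 1.03, with 0.98 and 0.94 in the treated pairs. RCAN1, an inhibitor of calcineurin, held 683, 938 and 753 untreated and 631, 617 and 688 at 16 µM in PEO1. Its change there was -0.33 ± 0.11 (edgeR adjusted p = 0.731), and its response in PEO4 after 32 µM exceeded that of PEO1 by 0.45 ± 0.16 (edgeR adjusted p = 0.610). Replicate 2 was the highest of the untreated PEO1 libraries in RCAN1. At an unadjusted p under 0.05 with edgeR, 1 of the 6 passed in each comparison but that of PEO4 after 16 µM, where none did. Over all genes tested, 5.81% passed in PEO1 after 16 µM, 2.63% in PEO4 after 16 µM and 6.43% in PEO4 after 32 µM. Between the doses 2.61% passed, and 7.89% and 6.94% in the response differences at 32 against 16 µM and at 16 µM in both lines.

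The long genes of neurons and adhesion gave the tightest ratios. DSCAM (21:41382926-42219084), a cell adhesion molecule, held 5549, 5584 and 5633 scaled reads in untreated PEO1 and 10613, 10619 and 10667 in untreated PEO4. Its ratio was 0.93 untreated, 0.93 at 16 µM in both lines and 0.90 for 32 over 16 µM. NCAM2, another adhesion molecule and the GC-poorest of the 6 (34.0% GC), had 0.84, 0.92 and 1.03. The list's median was 0.96 untreated, with a range of 0.84 to 1.13, and none of its 6 genes passed an unadjusted p of 0.05 with edgeR in a cisplatin comparison. Per kb, DSCAM held 6.68 and RUNX1 7.24 scaled reads in untreated PEO1.

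The 7 matrix and protease genes differed along the arm, where position and GC content were not separated. COL6A1 and COL6A2, chains of collagen VI near the end of the arm, had untreated ratios of 1.46 and 1.33, and COL18A1, the source of endostatin, had 1.44. ADAMTS1, a secreted protease of the matrix, had 1.04, and the other 3 genes had 0.75 to 1.07. COL6A1 held 112, 80 and 126 scaled reads in untreated PEO1 and 335, 208 and 332 in untreated PEO4. COL18A1 held 548, 709 and 693 in untreated PEO1 and 1314, 898 and 866 in PEO1 after 16 µM, a log2 change of 0.60 ± 0.16 (edgeR adjusted p = 0.698). Its ratio was 0.55 at 16 µM in both lines. The 100 kb bin it shares with SLC19A1 had a PEO1 change of 0.59, and of 0.19 with a GC offset per library. At an unadjusted p under 0.05 with edgeR, 2 of the 7 passed in each response difference, beside 7.89% of all genes at 32 against 16 µM and 6.94% at 16 µM in both lines. In PEO1 after 16 µM and in PEO4 after 32 µM 1 of the 7 passed, beside 5.81% and 6.43% of all genes. In PEO4 after 16 µM and between the doses 0 did, beside 2.63% and 2.61%.

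The 5 mitochondrial genes had a median ratio of 0.76. ATP5PF, a subunit of ATP synthase, held 173, 76 and 163 scaled reads in untreated PEO1 and 222, 237 and 197 in untreated PEO4, a ratio of 0.67, and ATP5PO, another subunit, had 1.01. All 5 were higher in every untreated PEO4 library, as were 167 of the 186 tested genes of the chromosome and 25.1% of those of the genome. With edgeR 1 of the 5 passed an unadjusted p of 0.05, in PEO4 after 16 µM, beside 2.63% of all genes. Of the 33 keratin-associated protein genes, small single-exon genes in clusters, only 12 reached a mean of 10 reads. The untreated libraries of the lines did not overlap in 167 of the 186 tested genes of the chromosome, but in only 1 of these 12. Their ratios ran from -0.48 to 1.86, with KRTAP10-11 at 0, 15 and 18 scaled reads in untreated PEO1 and 4.36, 4.08 and 15.1 in untreated PEO4. KRTAP10-11 was named after its values were seen. These genes share sequence with each other, so their counts are uncertain.

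**Figure D5:**
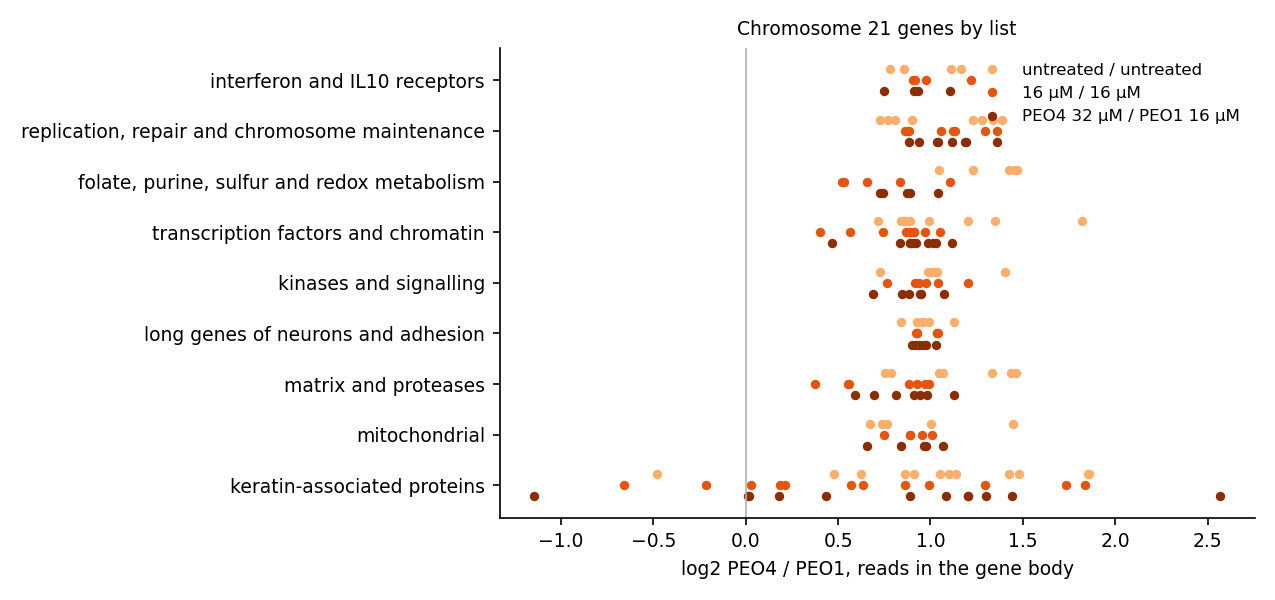
Log2 ratio PEO4 over PEO1 of reads in gene bodies for the tested genes of each list, in 3 pairs of groups. Points are genes; those of long genes crowd between 0.84 and 1.13, those of the small keratin-associated protein genes scatter from -1.15 to 2.57.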

How the data were processed

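The deposited table held raw counts of Pt-exo-seq reads, not normalised, in 1 kb windows stepped by 900 bp over hg19. Per the labels and the study's methods, the authors trimmed 100 bp single reads with BBDuk, aligned them with bowtie2, left out the ENCODE blacklist and removed duplicates with Picard; versions are not given in the sources used here. On all 24 chromosomes the final window reached the GRCh37 length. Overlapping windows count some reads again, in all libraries alike, and removal of duplicates and regions can lower counts in repeats of the short arm. The members, gene lists and named-gene rule were chosen with earlier results of these data known.

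Counts were divided by the library total outside chromosome Y and scaled to the median total. For GC trends and slopes, 0.5 reads were added to bin counts before the log2. Windows were summed by midpoint into 100 kb and 1 Mb bins and protein-coding gene bodies (GENCODE 44 on GRCh37); bins with mean counts of at least 50 or 500, and genes of at least 10, were tested. The longest run of N lies at the start of the chromosome, so the arms were divided at the longest run not at an end. edgeR 4.0.16 (TMM, quasi-likelihood) in R 4.3.3 was fitted to all 15 libraries in 5 groups, with Benjamini-Hochberg adjustment over all features of the genome within each comparison. Values per library were compared by exact two-sided permutation tests. The GC trend was the median deviation of a library from the mean of all libraries in 50 GC classes of bins of other chromosomes. Named genes were the first 2 to 4 of each list in fixed order; named bins had the smallest p in each direction, or the 3 highest and lowest untreated ratios; printed windows were taken by GG density and count. Alternatives used DESeq2 1.42.0, limma 3.58.1 (the study's kind of test), other filters, scalings and bins, a replicate block, and each library left out. The functions were tested on simulated data. The same-number check of replicates is given with the alternatives. Duplicate libraries were not found: counts differed between all libraries.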

Additional observations from a re-analysis of the deposited data

Results flagged for a closer look

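The response of the chromosome 21 share to 16 µM cisplatin had opposite signs in the lines. After subtracting the untreated mean of each line, the log2 share was 0.0089, 0.012 and 0.0044 in the 3 PEO1 libraries and -0.0036, -0.0035 and -0.012 in the 3 PEO4 libraries. The difference, PEO4 minus PEO1, was -0.015 (exact permutation p = 0.1, the smallest that 3 libraries against 3 can give; adjusted 0.45 over 6 comparisons). The untreated libraries themselves ranged from -0.0062 to 0.0071 in PEO1 and from -0.0048 to 0.0041 in PEO4. The difference was -0.0074 with the GC trend divided out (exact permutation p = 0.2). It was -0.0033 with every second window only (exact permutation p = 0.3), where the change from untreated cells was -0.0067 in PEO1 and -0.010 in PEO4.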

How the results depend on the processing

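No chromosome 21 bin or gene passed the adjusted limit under any of the 408 alternative fits behind the 18 counts, where the smallest adjusted p was 0.0716. That fit was of PEO4 after 32 µM in 1 Mb bins, without its 32 µM replicate 1. There 12 of 38 bins were higher and 10 lower at an unadjusted p under 0.05, beside 1331 of 2866 over the genome. With all libraries 2 of 38 and 287 of 2866 passed. In 100 kb bins without that library 44 of 350 were higher and 50 lower, beside 7185 of 28190 over the genome. The unadjusted counts at 32 µM thus depended on 1 library. The log2 share in PEO1 at 16 µM reversed to -0.0067 with every second window only, and the response difference at 32 against 16 µM to 0.0054. For PEO4 at 32 µM it reversed to -0.0046 with the GC trend divided out, -0.0013 with every second window only and -0.00051 without the top 1% of windows, and ranged from -0.0013 (without PEO4 32 µM replicate 2) to 0.0082 with each library left out. The untreated log2 ratio between the lines moved to 0.92 with the GC trend divided out, 0.96 on the long arm only, 0.92 with every second window only and 0.95 without the top 1% of windows. At 16 µM in both lines it moved to 0.94 on the long arm only and 0.94 without the top windows, and for 32 over 16 µM to 0.92, 0.95 and 0.94 with GC divided out, on the long arm and without the top windows.

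With each library left out, the GC slope difference ranged from -0.022 to 0.20 in PEO1 and from -0.19 to 0.039 between the doses, and the GG contrast from -0.067 to 0.36 and from -0.46 to 0.047. In PEO4 at 16 µM they ranged from -0.24 to -0.040 and from -0.47 to -0.049, the values nearest 0 without its 16 µM replicate 1. The negative value in PEO1 came without its 16 µM replicate 1, and the positive values between the doses without PEO4 32 µM replicate 2 or, for the slope at 0.019, 16 µM replicate 2. In an alternative chosen after seeing the data, each library was left out of the ratios, as counted, between the lines along the long arm. The end bin less the gene-poor bin ranged from -0.36 to 0.083 at 16 µM in both lines and from -0.50 to 0.023 for 32 over 16 µM, and r with GC from -0.58 to 0.35 and from -0.76 to 0.10. The cause was not tested. Over the chosen comparisons these values never passed a test, so they say little of stability.

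The replicate numbers gave no consistent pairing: deviations of same-number libraries correlated from -0.68 to 0.64 over 30 pairs, above 0.1 in 11. These correlations cannot tell whether same-number libraries shared a culture or batch. With the replicate number as a block, 23 bins of 100 kb instead of 24 passed an unadjusted p under 0.05 in PEO1 at 16 µM, and 0 passed the adjusted limit. The share differences as same-number pairs stayed at 0.0085, -0.0063, 0.0026 and 0.0090, with sign-flip p-values of 0.5, 0.25, 1 and 0.5 (exact, smallest possible 0.25). Depth limits single windows most, since the median long-arm window held 8.84 scaled reads.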
